A study of Mus musculus with 18 samples.

Results

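The stearoyl-CoA desaturase genes of the mouse lie side by side on chromosome 19, and their RNA was followed through 18 RNA sequencing libraries of 3T3-L1 adipocytes. The 4 gene models were taken by position from the 27473 of the deposited table, as those lying wholly within the stretch of chromosome 19 (mouse build mm9) that spans the cluster with a short margin on each side. The cluster itself was chosen on measured values: Scd3 was known to be among the gene models most lowered by Irf3 knockdown without LPS. The members are, in order along the chromosome, uc008hpn.1 (Scd3, 44277778 to 44318506, plus strand), uc008hpp.2 (Scd2, 44368166 to 44381352, plus strand), uc008hpq.1 (Scd4, 44407816 to 44421233, plus strand) and uc008hpr.2 (Scd1, 44468940 to 44482199, minus strand). The deposited table pairs no identifier with a symbol, and the names used here go by position in the cluster. They were checked against GENCODE transcripts of build GRCm38, in which the strand is the same for all 4 and the 4 inner exons of each gene have lengths found in its gene model (4 of 4 for Scd1, Scd2, Scd3 and Scd4). Whether a gene model also fits the exon lengths of another member was not tested. The check may therefore not tell the plus-strand genes apart, and their names rest on their order.

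3T3-L1 cells are mouse fibroblasts that turn into fat cells in culture when given an adipogenic cocktail. All libraries came from differentiated cells at passage 15 that had been transduced with lentivirus for 6 days. There are 6 groups of 3 libraries. Irf3_2D cells are labelled as overexpressing Irf3, the gene of an interferon regulatory transcription factor, and were set against cells given an EGFP (green fluorescent protein) vector. Cells with a short hairpin RNA against Irf3 (shIrf3) were set against cells with a hairpin against luciferase (shLuc), each with and without lipopolysaccharide (LPS), a bacterial cell wall component. LPS lasted a further 6 days, a time the labels give for knockdown cells. The meaning of 2D and the promoters of the vectors are not in the labels. Nor do they say that the 3 libraries of a group were separate cultures, so each p-value is set against library-to-library spread that could be technical. Total counts ran from 22143302 to 34368259 per library, and mitochondrial gene models held from 2.2% to 14.2% of them, the highest in shLuc replicate 1. Irf3 and adipocyte marker genes were not analysed here, since 0 of the 27473 identifiers could be matched to a symbol, so the labels were not checked against them.

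Stearoyl-CoA desaturases sit in the membrane of the endoplasmic reticulum and put a double bond into saturated fatty acyl-CoAs, which turns stearate into oleate and palmitate into palmitoleate. These monounsaturated fatty acids are built into triglycerides, phospholipids and cholesterol esters. Scd1 is the main form of mouse adipose tissue and liver and is known as a target of the lipogenic factors SREBP-1c and LXR. Scd2 is known from brain and many other tissues, Scd3 from sebaceous and Harderian glands, and Scd4 from heart.

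The 4 genes are close copies of each other, which matters for how reads were assigned. Their coding sequences are 1065 (Scd1), 1074 (Scd2), 1077 (Scd3) and 1059 bases (Scd4) long. Identity over aligned bases was highest between Scd3 and Scd1, at 91.5%, and lowest between Scd2 and Scd4, at 84.1%. The third exon, coding and 131 bases long in each gene, is printed below from the GENCODE transcripts to show where reads of the copies can be told apart. Capitals mark bases that differ from Scd1.
Scd1 (GRCm38, chr19:44403165-44403295, minus strand): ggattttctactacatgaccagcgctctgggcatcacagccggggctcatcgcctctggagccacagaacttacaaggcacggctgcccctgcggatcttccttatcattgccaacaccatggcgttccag
Scd2 (GRCm38, chr19:44298040-44298170, plus strand): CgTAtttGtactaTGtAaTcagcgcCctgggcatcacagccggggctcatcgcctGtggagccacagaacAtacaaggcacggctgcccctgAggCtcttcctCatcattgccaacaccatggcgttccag
Scd3 (GRCm38, chr19:44234223-44234353, plus strand): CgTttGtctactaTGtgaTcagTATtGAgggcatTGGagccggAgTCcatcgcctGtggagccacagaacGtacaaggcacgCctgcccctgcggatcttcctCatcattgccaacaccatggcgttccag
Scd4 (GRCm38, chr19:44337501-44337631, plus strand): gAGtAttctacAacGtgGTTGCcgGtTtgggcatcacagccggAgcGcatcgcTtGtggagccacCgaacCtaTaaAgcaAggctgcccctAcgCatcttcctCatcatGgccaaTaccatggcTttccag
In this exon Scd2 differs from Scd1 at 14 bases, Scd3 at 21 and Scd4 at 27, and the end of the exon reads the same in Scd1, Scd2 and Scd3. Over whole transcripts, 6.37% of the 50-base windows of Scd3 occur in another member, against 4.66% for Scd1, 3.79% for Scd2 and 3.44% for Scd4. Reads from such stretches could have been dropped or split between the copies, and their part in the results was not tested.

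Scd1 held most of the cluster's RNA in every group. Its level was 896 ± 204 RPKM (reads scaled to exon length and library size, mean ± SD, n = 3 libraries in each group) in Irf3_2D and 2674 ± 400 RPKM in EGFP. In the hairpin arm it was 1691 ± 131 RPKM in shIrf3 with LPS, 2117 ± 438 in shLuc with LPS, 1790.45 ± 358 in shIrf3 and 2663 ± 221 in shLuc. From 0.427% to 1.57% of the counts of a library, which are reads assigned to gene models, belonged to Scd1. Scd2 came next, from 67.1 ± 19.5 RPKM in Irf3_2D to 296 ± 43.4 RPKM in shLuc. Scd3 ranged from 1.47 ± 0.449 RPKM in shIrf3 to 7.29 ± 0.348 RPKM in shLuc, and Scd4 from 0.381 ± 0.0464 RPKM in shIrf3 to 0.724 ± 0.180 RPKM in shLuc. Read counts per library were 112662 to 471258 for Scd1, 5047 to 52348 for Scd2, 81 to 743 for Scd3 and 18 to 73 for Scd4, so counting error weighs most on Scd4. The Scd1 gene model also lists a 604-base plus-strand exon inside its last exon, and its RPKM would be 1.12 times as high over the minus-strand exons alone.

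**Figure D1:**
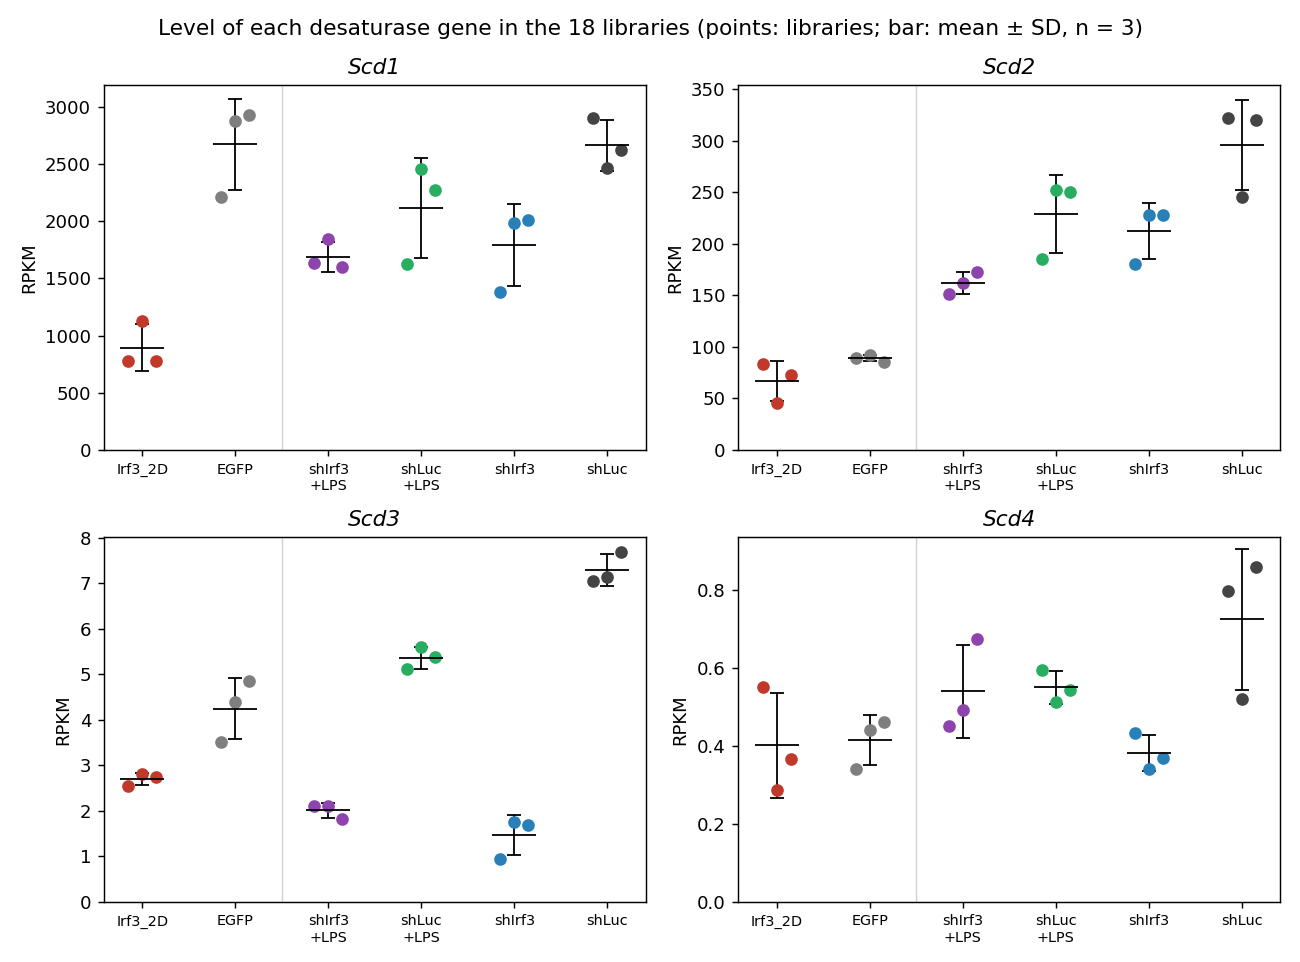
Level of each gene in RPKM (y axis, from 0) in the 6 groups (x axis); points are libraries and bars the mean ± SD of 3. Scd1 was lowest in Irf3_2D (778 to 1132 RPKM), whereas Scd3 was lowest in shIrf3 (0.950 to 1.76 RPKM) and Scd2 was lower in both groups of the overexpression arm (45.4 to 91.7 RPKM) than in any hairpin library (151 to 322 RPKM). The arms also differ in vector, and the cluster was chosen on Scd3 being low in shIrf3 against shLuc.

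The 4 genes did not rank the 6 groups alike. The 2 arms used different vectors and share no group, so a difference between arms cannot be told apart from one of vector. For Scd3 the means ran upward through shIrf3 (1.47 RPKM), shIrf3 with LPS (2.01), Irf3_2D (2.70), EGFP (4.25), shLuc with LPS (5.36) and shLuc (7.29), and no neighbours in that order overlapped. The share of all gene models free of overlap along their whole order was not counted. For single pairs, 13.0% were higher with no overlap in shIrf3 with LPS than in shIrf3. Lower with no overlap were 8.24% in Irf3_2D against EGFP and 11.5% in shLuc with LPS against shLuc. For Scd1 the order was Irf3_2D, shIrf3 with LPS, shIrf3, shLuc with LPS, shLuc and EGFP, where shIrf3 overlapped both of its neighbours and EGFP overlapped shLuc. For Scd2 the groups of the overexpression arm stood lowest without overlapping their neighbours, and above them came shIrf3 with LPS, shIrf3, shLuc with LPS and shLuc, the last 3 of which overlapped in turn. Every pair of neighbours overlapped for Scd4. The highest group mean was 4.97 times the lowest for Scd3, 4.41 times for Scd2, 2.98 times for Scd1 and 1.90 times for Scd4. For Scd3 the highest and lowest groups are shLuc and shIrf3, the comparison the cluster was chosen on. That choice favours a wide range for Scd3, so these ratios are a description only.

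The first comparison sets cells labelled as overexpressing Irf3 against cells with the EGFP vector. Scd1 was lower in the Irf3_2D cells. It stood at 779, 1132 and 778 RPKM in Irf3_2D replicates 1 to 3, against 2213, 2876.5 and 2931 RPKM in EGFP. All 3 Irf3_2D libraries lay below all 3 EGFP libraries, and the highest of them was replicate 2. The log2 fold change was -1.58 ± 0.22 (SE), or 2.99-fold lower, with an adjusted p of 0.018 in edgeR's quasi-likelihood test. Of the 13931 gene models tested in this comparison 0.639% were called lower, and 8.24% were lower with no overlap between the groups. The call of Scd1 ended without Irf3_2D replicate 1 or 3 or without EGFP replicate 2 or 3, where the log2 fold change lay between -1.54 and -1.49 and the edgeR adjusted p between 0.0739 and 0.142.

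The other genes of the cluster did not pass the edgeR test in this arm. Scd3, at 2.55, 2.80 and 2.75 RPKM in Irf3_2D and 3.51, 4.39 and 4.84 RPKM in EGFP, did not overlap between groups. Its log2 fold change was -0.66 ± 0.16 (SE, edgeR adjusted p = 0.11), and it passed in DESeq2 (DESeq2 adjusted p = 0.0171), without Irf3_2D replicate 2 (edgeR adjusted p = 0.0221) and with all 18 libraries in one edgeR fit (adjusted p = 0.0153). Scd2 had 83.3, 45.4 and 72.6 RPKM in Irf3_2D and 89.7, 91.7 and 85.8 RPKM in EGFP, and its log2 fold change was -0.41 with a 95% interval from -0.88 to 0.06 (edgeR adjusted p = 0.55). Irf3_2D replicate 2 was the lowest for Scd2 and the highest for Scd1, and the log2 fold change of Scd2 without it was -0.20. Within its group this library stood apart over all gene models: chi-square per degree of freedom of its counts was 112 against replicate 1 and 91.7 against replicate 3, and 10.8 between those. Scd4 had a log2 fold change of -0.02 (95% interval -0.70 to 0.65), and these groups overlapped. The median of the 4 was -0.53, against 0.02 over all gene models tested.

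Knockdown under LPS sets cells labelled with the Irf3 hairpin against shLuc cells, both exposed to the endotoxin. These libraries are other than those of the comparison the cluster was chosen on. The sample titles name no other hairpin against Irf3, so an effect of this hairpin cannot be told apart from one of lowered Irf3. Scd3 and Scd2 fell. Scd3 had 2.10, 2.11 and 1.82 RPKM in shIrf3 with LPS, against 5.11, 5.60 and 5.37 RPKM in shLuc with LPS. The groups lay far apart, with no overlap. Its log2 fold change was -1.39 ± 0.15 (SE), 2.62-fold lower, with an edgeR adjusted p of 4.1e-05, and the call held in all 22 alternatives run, where the log2 fold change ranged from -1.43 to -1.32. Of the 14970 gene models tested 3.31% were called lower, and 20.8% were lower with no overlap between the groups.

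Scd2 fell by less. It had 151, 162 and 172 RPKM in shIrf3 with LPS and 185, 252 and 249.9 RPKM in shLuc with LPS. The groups did not overlap, but shLuc with LPS replicate 1 stood close to the knockdown libraries. The log2 fold change was -0.47 ± 0.13 (SE, edgeR adjusted p = 0.0412). The call ended in 9 of 22 alternatives, which were all 18 libraries in one fit (adjusted p = 0.157) and leaving out any shIrf3 library with LPS, shLuc with LPS replicate 2 or 3, shIrf3 replicate 2 or 3, or shLuc replicate 3, with log2 fold changes from -0.52 to -0.40 over all 9. Scd1 had 1632, 1841 and 1599 RPKM in shIrf3 with LPS and 1623, 2456 and 2272 RPKM in shLuc with LPS. These groups overlapped, through shLuc with LPS replicate 1, and the log2 fold change was -0.30 with a 95% interval from -0.63 to 0.04 (edgeR adjusted p = 0.297). Scd4 overlapped as well, at -0.01 (95% interval -0.48 to 0.46). In bulk RNA, fewer adipocytes and less of a transcript in each adipocyte cannot be told apart.

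**Figure D2:**
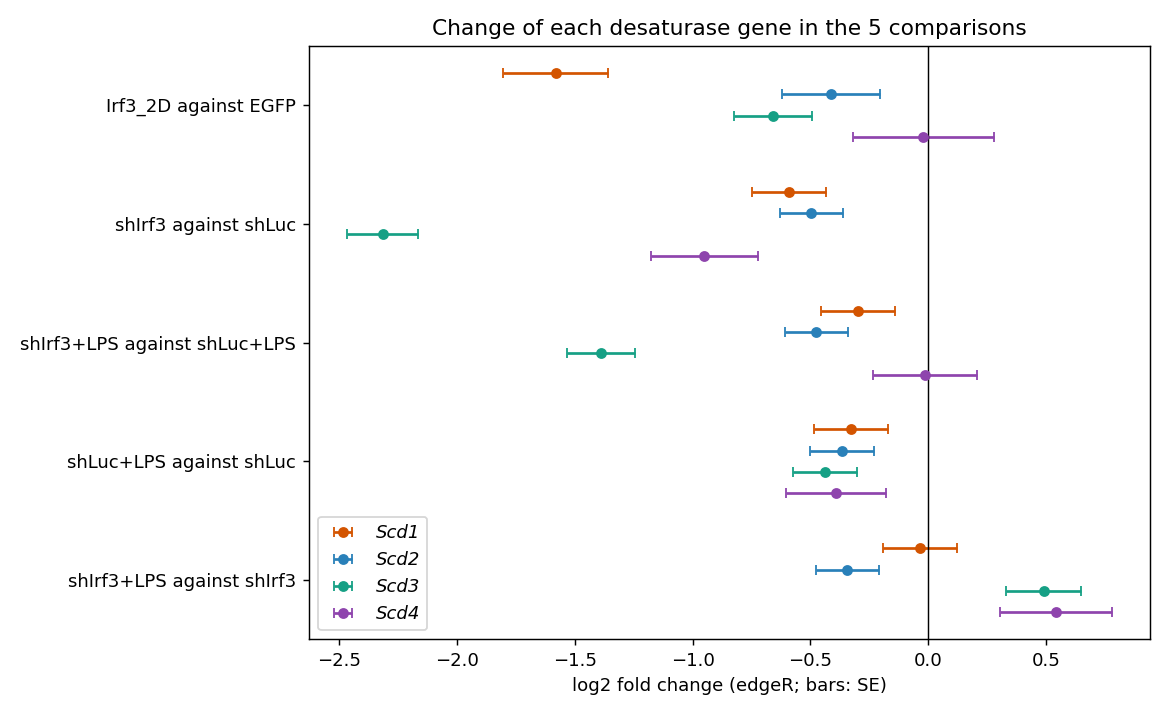
Log2 fold change of each gene (x axis) with its SE as bars in the 5 comparisons (rows). Scd3 had the lowest value in both knockdown comparisons (-1.39 with LPS and -2.32 without, the value the cluster was chosen on), Scd1 in overexpression (-1.58).

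Knockdown without LPS is the comparison that the cluster was chosen on, so it is described here with no test. All 4 genes were lower in shIrf3, with no overlap between the groups. Scd3 had 0.950, 1.76 and 1.69 RPKM in shIrf3, against 7.05, 7.14 and 7.69 RPKM in shLuc, 4.98-fold lower. Scd4 had 0.432, 0.341 and 0.369 RPKM in shIrf3 and 0.796, 0.519 and 0.857 RPKM in shLuc, 1.93-fold lower. Scd1 had 1378, 1982 and 2012 RPKM in shIrf3 and 2902, 2465 and 2623 RPKM in shLuc, 1.51-fold lower. Scd2 had 181, 228 and 228 RPKM in shIrf3 and 322, 246 and 319.9 RPKM in shLuc, 1.41-fold lower. The shLuc libraries differed widely from each other over all gene models. Chi-square per degree of freedom of their counts was 350 between replicates 1 and 2, 199 between 1 and 3 and 55.9 between 2 and 3. Mitochondrial gene models, which this sum includes, held 14.2%, 2.88% and 5.19% of the counts of shLuc replicates 1 to 3. Their part in these values was not tested. Replicate 1 of shIrf3 was the lowest for Scd1, Scd2 and Scd3 and the highest of its group for Scd4. The median log2 fold change of the 4 was -0.77, against -0.02 over all gene models, of which 3.91% were called lower and 10.2% were lower with no overlap; since this comparison guided the choice, nothing is read from these shares.

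The 2 arms, which share no library, can be set side by side for Scd1 and Scd3. Scd1 had a log2 fold change of -1.58 ± 0.22 (SE) in overexpression. For the hairpin it was -0.30 ± 0.16 under LPS, where the groups overlapped and the gene did not pass, and -0.59 ± 0.16 without LPS. Scd3 had -0.66 ± 0.16 in overexpression, where it did not pass, -1.39 ± 0.15 for the hairpin under LPS and -2.32 ± 0.15 without LPS. The values without LPS come from the comparison the cluster was chosen on, and the differences between the arms were not tested.

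LPS itself was compared with no LPS in each hairpin line. These comparisons share shLuc or shIrf3 libraries with the one the cluster was chosen on. A gene chosen as high in shLuc and low in shIrf3 tends to be lower with LPS in shLuc and higher with LPS in shIrf3 through that choice alone, so the members are described here with no test. Cells without LPS may have been harvested at another time, so an effect of LPS cannot be told apart from one of culture time. In shLuc cells log2 fold changes were -0.33 ± 0.16 (SE) for Scd1, -0.37 ± 0.13 for Scd2, -0.44 ± 0.13 for Scd3 and -0.39 ± 0.21 for Scd4. Scd3 had 5.11 to 5.60 RPKM with LPS and 7.05 to 7.69 RPKM without. Groups did not overlap for Scd1 and Scd3, and 11.5% of all gene models were lower without overlap.

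In shIrf3 cells Scd3 had 2.10, 2.11 and 1.82 RPKM with LPS and 0.950, 1.76 and 1.69 RPKM without. Its log2 fold change was 0.49 ± 0.16 (SE), and from 0.27 to 0.64 when 1 of the shIrf3 libraries was left out, the smallest without replicate 1 and the largest without replicate 2. Log2 fold changes were 0.54 ± 0.24 for Scd4, -0.34 ± 0.13 for Scd2 and -0.03 ± 0.16 for Scd1. The groups did not overlap for Scd3 and Scd4, higher with LPS as were 13.0% of all gene models, nor for Scd2, lower with LPS as were 26.7%. By the same values, the log2 fold change of knockdown with LPS minus that without was 0.93 for Scd3, 0.94 for Scd4, 0.29 for Scd1 and 0.02 for Scd2. These differences hold the value the cluster was chosen on, which favours a positive one for Scd3, and are a description only.

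Ratios between genes of the same library do not depend on how libraries were scaled. The ratio of Scd1 to Scd2 RPKM was 9.35, 24.9 and 10.7 in Irf3_2D, against 24.7, 31.4 and 34.2 in EGFP. Irf3_2D replicate 2 lay among the EGFP values, the other 2 far below. In the hairpin arm it averaged 10.5 ± 1.07 in shIrf3 with LPS, 9.20 ± 0.506 in shLuc with LPS, 8.38 ± 0.652 in shIrf3 and 9.08 ± 0.920 in shLuc (SD, n = 3). All EGFP libraries lay above every hairpin library in this ratio, a difference between arms that also differ in vector. Scd1 and Scd2 varied together over the 12 hairpin libraries, with a Pearson correlation of log2 CPM of 0.89, while Scd3 followed Scd1 at 0.81 and Scd2 at 0.71, and Scd4 followed Scd1 at 0.45; these share libraries and groups and are given as a description.

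Scd3 was set against Scd1, its closest copy. For every 1000 reads of Scd1, Scd3 had 0.772 ± 0.0535 reads in shIrf3 with LPS and 1.69 ± 0.312 in shLuc with LPS, and these groups did not overlap. The numbers were 0.524 ± 0.0673 in shIrf3 and 1.79 ± 0.182 in shLuc, and 2.01 ± 0.356 in Irf3_2D and 1.03 ± 0.0411 in EGFP (SD, n = 3). Relative to Scd1, Scd3 was therefore lower in both knockdown groups and higher in the overexpression group than in the matched controls. The knockdown without LPS is the comparison the cluster was chosen on, so that ratio is a description only. In overexpression both genes had lower levels in Irf3_2D, Scd1 by more (log2 fold change -1.58, against -0.66 for Scd3, which did not pass).

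**Figure D3:**
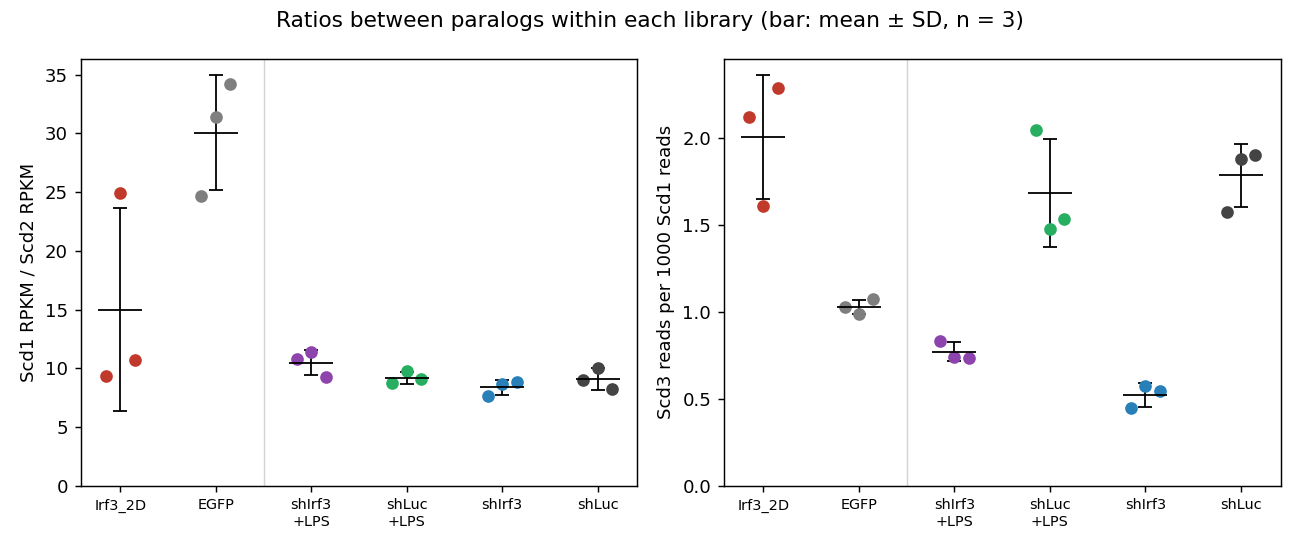
Ratio of Scd1 to Scd2 RPKM (left) and Scd3 reads per 1000 Scd1 reads (right) in each library, by group; bars are the mean ± SD of 3. Scd3 per 1000 Scd1 reads was 0.737 to 0.833 in shIrf3 with LPS and 1.48 to 2.05 in shLuc with LPS.

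The gene models flanking the cluster were examined for changes of the same kind. Of the 5 tested on each side, 2 were called lower and 2 higher by edgeR for knockdown under LPS (4.90% of all gene models were called higher there), with log2 fold changes from -1.17 to 0.65 and a median of -0.04. The lowest was uc008hpm.2, on the minus strand next to Scd3 (44222127 to 44266932). It had 0.894, 1.02 and 1.1 CPM (counts scaled to library size) in shIrf3 with LPS and 2.40, 2.42 and 2.11 CPM in shLuc with LPS, and its log2 fold change was -1.17 ± 0.23 (edgeR adjusted p = 0.00554). Without LPS it was the only flanking model called, at 0.290, 0.524 and 0.643 CPM in shIrf3 and 1.34, 2.34 and 1.66 CPM in shLuc (log2 fold change -1.86 ± 0.28, edgeR adjusted p = 0.000844). Its counts were low, from 7 to 77 per library. With LPS against without it in shIrf3 cells, where 4.17% of all gene models were called higher, it was the only flanking model called (log2 fold change 1.08 ± 0.30, edgeR adjusted p = 0.0352). In shLuc cells, where 4.27% were called higher, the only one called was another model before Scd3 (44109433 to 44144275), at 0.35 ± 0.07 on the log2 scale (edgeR adjusted p = 0.00177). The flanking calls without LPS and with LPS against without use libraries of the comparison the cluster was chosen on. Neighbours of Scd3 may not be free of that choice, so these calls are a description only. The 9 flanking models tested for overexpression gave 0 calls. In the RefSeq gene table of GRCm38, the spans of Scd3 and Pkd2l1 overlap, and GENCODE puts Pkd2l1 on the opposite strand. The deposited models that were counted do not overlap, as uc008hpm.2 ends at 44266932 and Scd3 starts at 44277778. The library kit does not mark the strand, so reads of genes that do overlap cannot be told apart. Any part of this in the values was not tested, and uc008hpm.2 itself was not paired with a symbol.

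**Figure D4:**
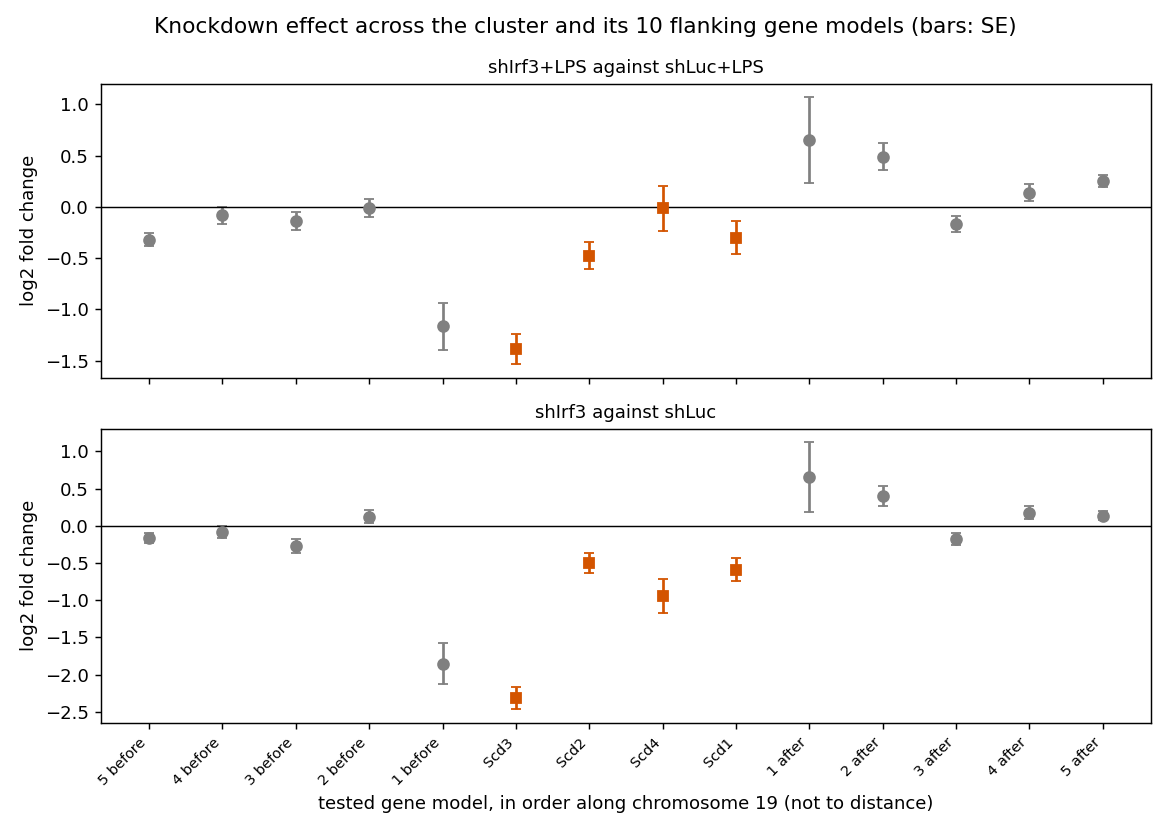
Log2 fold change with SE (y axis) of the 4 desaturase genes (squares) and the 5 tested gene models before and after them (circles), in chromosome order, for knockdown with LPS (top) and without (bottom). Scd3 (-1.39 and -2.32) and the model just before it (-1.17 and -1.86) stood lowest in both. The cluster was chosen on the low value of Scd3 without LPS.

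Over the 12 hairpin libraries, the gene model whose log2 CPM most resembled Scd3 was uc009fmw.2 on chromosome 7 (20274830 to 20278007, 4 exons, minus strand), with a Pearson correlation of 0.97. It averaged 24.8 ± 6.26 CPM in shIrf3 with LPS and 52.6 ± 11.1 CPM in shLuc with LPS, and 16.6 ± 4.05 CPM in shIrf3 and 60.3 ± 6.12 CPM in shLuc (SD, n = 3). The models named here were picked for the highest correlation among the 14970 tested. The 12 libraries include those of the comparison the cluster was chosen on, so likeness in the hairpin groups reflects that pick. In the overexpression arm, which the correlation did not use, uc009fmw.2 averaged 9.37 ± 1.58 CPM in Irf3_2D and 26.4 ± 3.94 CPM in EGFP. A 10-exon model on chromosome 16 (23965138 to 23988698) followed at 0.96. For Scd1 the closest was a 30-exon model on chromosome 13 (115748289 to 115892172), at 0.93, which averaged 4.50 ± 1.13 CPM in Irf3_2D and 11.0 ± 1.68 CPM in EGFP, followed by a 4-exon model on chromosome 11 (97546910 to 97549939) at 0.92. Symbols were not paired with these models either.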

How the data were processed

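The deposited values are whole-number counts for each gene model, which the authors did not normalize. The submitters' processing notes name featureCounts 1.4.6, TopHat2 2.0.14, SAMtools 0.1.19, Picard 2.2.4, bcl2fastq 2.17.1.14 and edgeR, and the build mm9. Per the labels' protocols, 70 ng of RNA went through Ribo-zero depletion and a TruSeq RNA v2 kit. Exon positions and summed exon length come from the same table, per the file headers.

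Counts were tested with edgeR 4.0.16 (glmQLFit, robust, and glmQLFTest) in R 4.3.3, with filterByExpr, TMM factors and p-values adjusted over all gene models tested (Benjamini-Hochberg, called at 0.05). One fit held the 6 overexpression libraries and another the 12 hairpin libraries. Standard errors are the log2 fold change over the square root of F, and intervals use the fit's degrees of freedom. CPM was scaled by TMM over all 18 libraries, log2 CPM used a prior count of 2, and RPKM divides CPM by the deposited exon length. The fits were first checked on simulated data. As alternatives, voom (limma 3.58.1), DESeq2 1.42.0, other scalings, filters and sets of libraries, and a block on replicate number were run. The planned edgeR tests of LPS against no LPS are not given for the 4 genes, since they share libraries with the comparison the cluster was chosen on. The 4 genes and the lists were chosen with earlier results of these data known. Named gene models are the 4 members, the 5 tested gene models on each side (at most 2 by identifier) and the 2 most like Scd3 and Scd1. Lists of lipogenic and cell type genes, and protein comparisons, were not used, for want of symbols and of protein sequences.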

Additional observations from a re-analysis of the deposited data

Results flagged for a closer look

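Scd3 had log2 fold changes of opposite sign with LPS in the cells of the 2 hairpins. All 3 shIrf3 libraries with LPS lay above all 3 without, at 0.49, and all 3 shLuc libraries with LPS lay below all 3 without, at -0.44. Neither change is given a test, and the difference between them was not tested. The cluster was chosen on Scd3 being low in shIrf3 and high in shLuc without LPS, which favours these directions by itself. Without shIrf3 replicate 1, which had the lowest Scd3 level at 0.950 RPKM, the value in shIrf3 was 0.27.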

How the results depend on the processing

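The direction held in all alternatives for Scd1, Scd2 and Scd3 in overexpression and both knockdown comparisons. Scd4 turned positive in overexpression without some single libraries (range -0.33 to 0.15) and in knockdown under LPS (-0.19 to 0.10), as did Scd1 for LPS in shIrf3 (-0.19 to 0.0563, and 0.00937 with library totals only). The cause was not tested. Counts of all gene models moved more, higher then lower. For overexpression DESeq2 gave 236 and 245, no low-count filter 139 lower, all 18 libraries in one fit 464 and 478, and single libraries left out 0 to 473 and 5 to 548. For knockdown, library totals gave 345 lower, the 6 libraries compared 235 and 201, all 18 libraries 202 and 184, and single libraries left out 284 to 1623 and 226 to 1121. For knockdown under LPS the same settings gave 306 lower, 1495 and 1353, 205 and 173, and 327 to 1329 and 198 to 910. For LPS in shLuc they gave 321 lower, 366 and 302, 350 and 345, and 440 to 982 and 365 to 1150, and for LPS in shIrf3 313 lower, 1323 and 1567, 284 and 337, and 383 to 1090 and 323 to 1141. With the replicate number as a block, the log2 fold change of Scd1 in overexpression was -1.59 (edgeR adjusted p = 0.00837) and that of Scd3 in knockdown under LPS -1.38 (edgeR adjusted p = 8.59e-05), and no member changed its call. Deviations of same-numbered libraries from their group means correlated from -0.19 to 0.22. With 3 libraries in each group, such values cannot show whether the numbers pair samples. Scd4, at 18 to 73 reads, allows little to be told.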

Other observations

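Promoter windows from 250 bases before to 50 after the start were in the RefSeq table (GRCm38.p6) for 2 of the 4 genes, Scd3 and Scd4. Both strands were searched for 5 motifs. The NF-Y box, spelled CCAAT, was in 37.4% of all 32851 windows of the table. The core of the sterol regulatory element, spelled TCACNCCAC, was in 1.24% of them. The E-box that was searched, spelled CACGTG, was in 7.15% of them. The core of the interferon-stimulated response element was in 3.44% of them, and the TATA box, spelled TATAAA, in 13.6%. The windows of Scd3 and Scd4 held 0 matches to any of these letters, which says only that they are not in these windows.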
